A study of Mus musculus with 2 samples.

Results

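The leukocyte adhesion molecules described here are 6 genes, Icam1, Icam2, Vcam1, Sele, Selp and Pecam1, chosen by symbol from the 32285 genes counted in 2 droplet single-cell RNA libraries of mouse liver. The WT library (genotype label CTRL) came from liver alone. The N-LKO library (label NgBR KO) came from liver plus tumor of mice in which albumin-Cre, active in hepatocytes, deleted floxed Nus1, the gene of the NgBR protein. Both groups were male mice on a C57BL6 background given WD, a Western diet, for 16 weeks (the sample titles name it HFD), and their livers were perfused with collagenase and the hepatocytes mixed with non-parenchymal cells, with tumor cells added for N-LKO only. Each group had 1 library, so genotype, tumor tissue and library cannot be told apart and no test between groups was possible. Every interval below is a 95% interval that covers counting error only.

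Leukocytes leave the blood in steps. Selectins on the vessel wall slow the passing cell, chemokines activate its integrins, the integrins bind immunoglobulin-like ligands such as ICAM-1 and VCAM-1, and PECAM-1 takes part in the passage between endothelial cells. E-selectin, P-selectin, ICAM-1 and VCAM-1 can be induced by cytokines such as TNF and IL-1, whereas ICAM-2 and PECAM-1 are made by resting endothelium. In the liver the sinusoidal endothelium is known to rely little on selectins, and Kupffer cells, the resident macrophages, also make VCAM-1.

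By the GRCm38 annotation (GENCODE vM21), whose gene IDs matched 32235 of the 32285 genes, Icam1 (ENSMUSG00000037405) lies on the plus strand of chromosome 9 at 21015985-21028817, with 7 exons in its principal transcript. Vcam1 (ENSMUSG00000027962) lies on the minus strand of chromosome 3 at 116109949-116129688, with 9 exons. Icam2 (ENSMUSG00000001029; 106377656-106388075, 4 exons) and Pecam1 (ENSMUSG00000020717; 106654217-106750628, 16 exons) are both on the minus strand of chromosome 11. Sele (ENSMUSG00000026582; 164048234-164057677, 14 exons) and Selp (ENSMUSG00000026580; 164115264-164150026, 16 exons) are on the plus strand of chromosome 1, 57.6 kb apart. The submitters' processing notes name the build mm9 and the files hold no coordinates, so these positions only identify the genes. Annotated genes on the other strand overlap Icam1 (Gm47079), Vcam1 (Gm43109) and Selp (Gm16587 and Gm16548).

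The start regions of Icam1, Sele and Selp are shown because these members are the cytokine-inducible ones for which a promoter was at hand. The RefSeq sequences (GRCm38.p6, plus strand, 250 bases before to 50 after the start) cover chr9:21015690-21015989, chr1:164047984-164048283 and chr1:164115014-164115313. The start used for Icam1 lies before the annotated gene start of 21015985 given above, and its distances are counted from the RefSeq start. Capitals mark GGANNNTCC, a kB-like letter pattern, and TGANTCA, an AP-1-like letter pattern that takes any middle base.
Icam1: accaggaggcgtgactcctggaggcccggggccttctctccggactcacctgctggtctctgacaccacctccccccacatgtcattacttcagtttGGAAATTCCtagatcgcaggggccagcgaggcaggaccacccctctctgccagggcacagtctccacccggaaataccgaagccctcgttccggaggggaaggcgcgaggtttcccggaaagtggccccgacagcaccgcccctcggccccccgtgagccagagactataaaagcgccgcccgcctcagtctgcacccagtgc
Sele: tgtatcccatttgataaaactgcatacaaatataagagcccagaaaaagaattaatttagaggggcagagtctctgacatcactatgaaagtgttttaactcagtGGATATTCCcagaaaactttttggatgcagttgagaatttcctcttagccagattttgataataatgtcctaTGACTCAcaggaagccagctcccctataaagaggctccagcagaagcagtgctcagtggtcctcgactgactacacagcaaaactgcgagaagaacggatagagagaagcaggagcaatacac
Selp: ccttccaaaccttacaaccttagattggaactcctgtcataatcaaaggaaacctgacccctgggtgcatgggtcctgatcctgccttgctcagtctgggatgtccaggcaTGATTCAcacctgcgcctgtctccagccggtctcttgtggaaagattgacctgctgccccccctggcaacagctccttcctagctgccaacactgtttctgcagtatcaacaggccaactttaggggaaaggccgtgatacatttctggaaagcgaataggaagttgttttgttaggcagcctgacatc
GGANNNTCC occurred in Icam1 from 153 to 145 bases before the start and in Sele from 145 to 137 bases before it, against 8.66% of 32544 promoters of the same length. TGANTCA occurred in Sele from 73 to 67 bases before the start and in Selp from 139 to 133 bases before it, against 7.79% of promoters. The NF-kB consensus, held by 8.49% of promoters, had no match in the 3 windows, and GGANNNTCC was chosen after that was seen. Both strands were searched. The kB-like pattern can overlap the NF-kB consensus. A match is a description of letters only.

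The libraries held 100171 barcodes with 85522287 UMIs (WT) and 90147 barcodes with 87575064 UMIs (N-LKO), and 2499 barcodes occurred in both (2.49% and 2.77%). After filters and removal of doublets, 18430 and 19854 cells remained, with medians of 1400 and 1455 UMIs. The endothelial-like class held 1867 WT and 2380 N-LKO cells. All 12 of its markers, none of them a member, were detected in both libraries, with a summed level of 7612 and 5149 CPM (a gene's UMIs over all UMIs of the class, scaled as counts per 1e6). In hepatocyte-like cells Nus1 stood at 72.9 CPM for WT and 38.9 for N-LKO, while endothelial-like cells had 90.1 and 92.9.

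Over whole libraries all 6 members were higher in N-LKO. Vcam1 stood at 50.3 CPM in WT and 138 in N-LKO, and Icam1 at 13.1 and 31.9. Selp stood at 4.35 and 9.95, Pecam1 at 44.2 and 82.7, Icam2 at 5.34 and 7.98, and Sele at 1.10 and 1.67. The makeup of the libraries differed as well: hepatocyte-like cells, in which the members were low, numbered 9944 in WT and 2095 in N-LKO, and macrophage-like cells 1712 and 3945. In bulk totals such as these, fewer cells of a type and less RNA per cell cannot be told apart.

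To separate makeup from level, the WT level of each of 13 named classes was combined with the N-LKO mixture of classes. Icam1 was then 1.91-fold higher from makeup alone, against 2.27-fold observed, and Pecam1 1.61-fold against 1.82-fold. Icam2 (1.64-fold against 1.52-fold) and Sele (1.49-fold against 1.13-fold) were observed under the value that makeup gave. Vcam1 exceeded it most, with 2.13-fold from makeup and 3.53-fold observed, followed by Selp with 1.44-fold and 1.90-fold. All these values cover the 13 classes only and so leave out the cells that stayed mixed. Among Vcam1 UMIs, mixed cells accounted for 28.3% in WT but only 9.27% in N-LKO. With every kept cell counted, Vcam1 was 2.49-fold higher, Icam1 1.98-fold, Selp 1.80-fold, Pecam1 1.54-fold, Icam2 1.34-fold and Sele 1.13-fold. The size of the Vcam1 excess thus depended on which cells were counted.

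**Figure D1:**
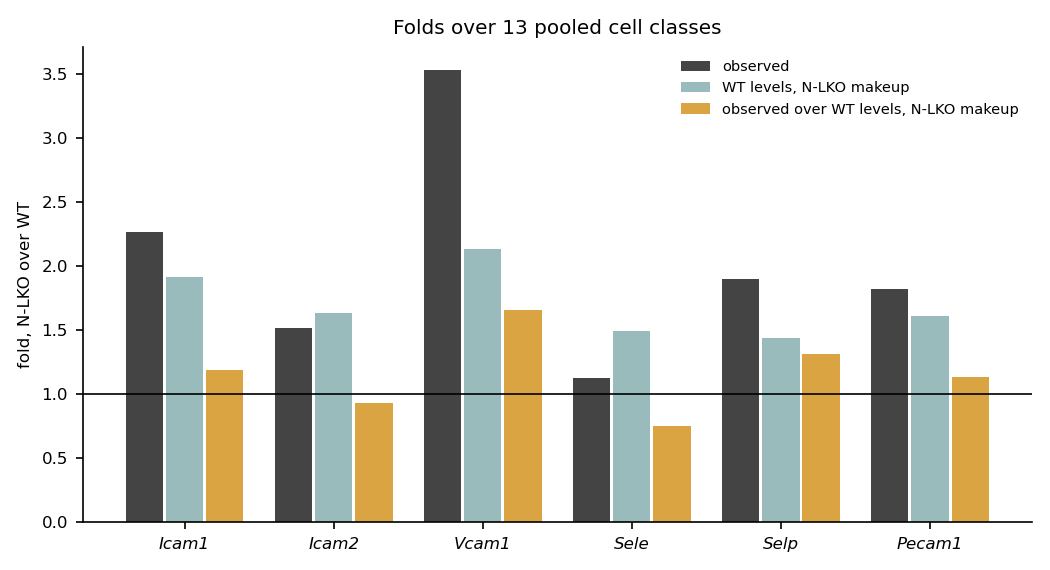
Fold of each member, N-LKO over WT, pooled over 13 cell classes: observed, from WT class levels in the N-LKO makeup, and the first over the second (bars start at 0, line at 1, 1 library per group and no error bars). The last bar is highest for Vcam1, at 1.65, and under 1 for Icam2 and Sele, at 0.929 and 0.756.

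Over the endothelial-like class as a whole the members differed little. None of the 6 was past 1.5-fold higher in N-LKO and 1, Sele, was past 1.5-fold lower, where 23.5% of the 11530 genes tested were past 1.5-fold higher and 17.5% past 1.5-fold lower. All 6 passed the filter of 5 CPM in at least 1 library. Only the interval of Pecam1 lay apart from equal levels. The class also differed in makeup: the subcluster led by Eda and Pdzrn3, described below, held 20 WT and 468 N-LKO cells. In the sinusoidal subcluster alone the log2 ratios, N-LKO over WT, were 1.25 for Selp, 0.62 for Icam1 and 0.51 for Vcam1. Icam2 was at 0.40, Pecam1 at 0.27 and Sele at -0.26, and the intervals of Selp, Vcam1 and Pecam1 left out 0.

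Sele, which encodes E-selectin, had 24 UMIs in WT endothelial-like cells, 10.2 CPM (6.54 to 15.2), and 22 in N-LKO, 6.35 CPM (3.98 to 9.61). It was 1.60-fold higher in WT, with a log2 ratio of N-LKO over WT of -0.68 (-1.59 to 0.21), so a difference was not detectable at this depth. Selp, which encodes P-selectin, had 75 UMIs in WT, 31.9 CPM (25.1 to 40.0), and 125 in N-LKO, 36.1 CPM (30.03 to 43.0). Its log2 ratio was 0.17 (-0.25 to 0.61), and the intervals of both selectins overlapped between libraries.

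Icam1, the ligand of the leukocyte integrins LFA-1 and Mac-1, had 69 UMIs in WT, 29.3 CPM (22.8 to 37.1), and 128 in N-LKO, 36.9 CPM (30.8 to 43.9), for a log2 ratio of 0.33 (-0.10 to 0.78). Icam2, an LFA-1 ligand of resting endothelium, had 78 UMIs in WT, 33.2 CPM (26.2 to 41.4), and 94 in N-LKO, 27.1 CPM (21.9 to 33.2), for a log2 ratio of -0.29 (-0.74 to 0.16). Vcam1, the ligand of the integrin VLA-4, had 186 UMIs in WT, 79.1 CPM (68.1 to 91.3), and 308 in N-LKO, 88.9 CPM (79.3 to 99.4), for a log2 ratio of 0.17 (-0.10 to 0.44). By these class levels and ratios, none of the 3 ligands was separated between the libraries.

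Free RNA differed between the libraries as well. In barcodes under 500 UMIs, which serve as an estimate of free RNA, Icam1 stood at 6.49 CPM in WT and 26.1 in N-LKO, and Vcam1 at 22.9 and 68.2. Icam2 (1.71 and 5.25) and Sele (0.245 and 1.15) were higher there in N-LKO too, unlike in endothelial-like cells. Free RNA made up an estimated 46.4% (WT) and 44.8% (N-LKO) of endothelial-like UMIs, judged from 7 hepatocyte genes. With it subtracted, the log2 ratio of Icam1 was -0.10 and that of Vcam1 -0.27, so the sign of both depended on this step. Selecting cells by marker UMIs without clusters likewise turned the ratio of Icam2 to 0.29.

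Pecam1, a junction protein that binds itself on the neighbouring cell, had 668 UMIs in WT, 284 CPM (263 to 306), and 1103 in N-LKO, 318 CPM (299.9 to 338). Its log2 ratio was 0.16 (0.03 to 0.31), beside a median of 0.09 over all genes tested in the class. The level intervals overlapped slightly, the interval of the ratio left out 0, and the size was 1.12-fold. The ratio was 0.08 with free RNA subtracted and 0.04 without a mitochondrial limit.

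**Figure D2:**
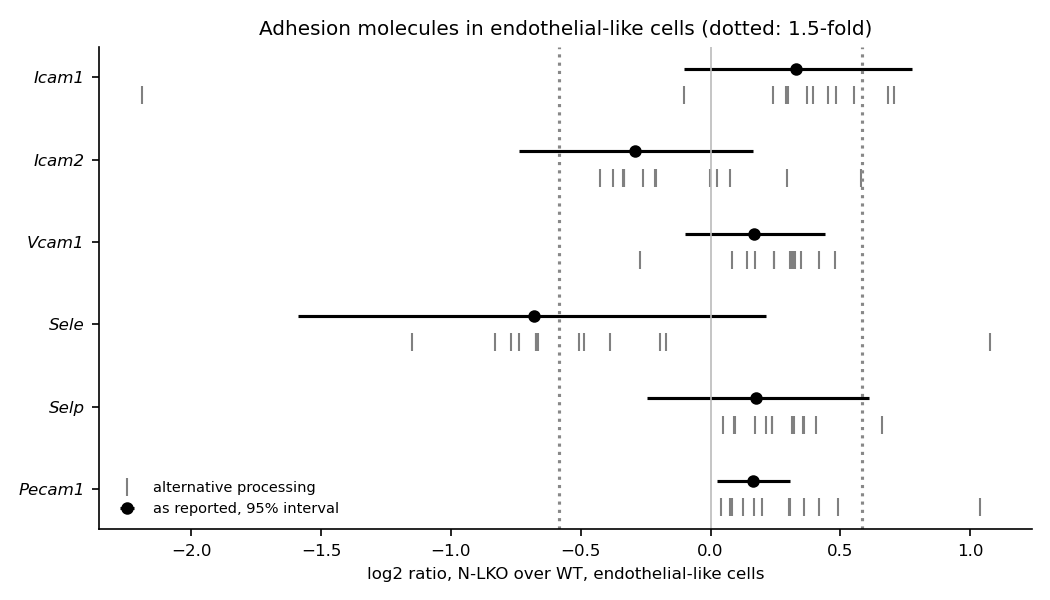
Log2 ratio of each member, N-LKO over WT, in endothelial-like cells (points with 95% counting intervals) and under 13 alternative ways of processing (grey ticks); dotted lines mark 1.5-fold. Only the Pecam1 interval, 0.03 to 0.31, leaves out 0; the outlying ticks of Icam1 at -2.19, Sele at 1.07 and Pecam1 at 1.04 come from a mitochondrial limit of 10%, which left 57 N-LKO endothelial-like cells.

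With each cell thinned to 1000 UMIs, a Pecam1 UMI was found in 24.4% of WT endothelial-like cells (22.4 to 26.4) and 28.1% of N-LKO cells (26.3 to 29.9), against 29.4% and 35.1% without thinning. Vcam1 was found in 6.37% (5.31 to 7.58) and 9.03% (7.91 to 10.3), against 8.57% and 11.6% without thinning. The thinned intervals of Vcam1 did not overlap between the libraries, unlike those of its CPM, and free RNA was not subtracted from these shares. The other members were in fewer cells. The thinned shares were 3.32% and 2.94% for Icam2 (unthinned 4.18% and 3.87%) and 2.68% and 3.49% for Icam1 (3.27% and 4.96%). For Selp they were 2.41% and 3.32% (3.05% and 4.54%), and for Sele 0.803% and 0.714% (1.02% and 0.882%). Hepatocyte-like cells, which should lack Pecam1, served as background: their medians were 1520 and 1945 UMIs, against 1173 and 1264 in endothelial-like cells. Their thinned shares were 1.66% and 1.53% for Pecam1, 1.58% and 2.91% for Vcam1 and 0.583% and 1.72% for Icam1, each under the endothelial-like share of the same library.

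At the spans of the members, the median ratio of tested genes of like span rose with span. The members did not follow that order: Icam1 had the highest ratio, 0.33, and Pecam1, the longest, had 0.16. Among the 499 tested genes nearest in span, the median endothelial log2 ratio was -0.25 at the span of Sele (9.44 kb), -0.15 at that of Icam1 (12.8 kb), 0.12 at that of Selp (34.8 kb) and 0.41 at that of Pecam1 (96.4 kb). Of the genes of its own span, 69.7% had a higher ratio than Pecam1 and 74.5% a higher ratio than Sele. The share was 22.6% for Icam1, 36.7% for Vcam1, 45.9% for Selp and 55.5% for Icam2. The part of span in the member ratios was not tested.

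Endothelial-like cells were split further without use of the members, after each gene was centred and scaled within its library. How far the subcluster ratios depend on that step was not tested. At a finer clustering of all cells, 1 endothelial-like cluster held 1681 WT and 34 N-LKO cells and another 135 and 1715. The largest subcluster carried sinusoidal markers (1166 WT and 951 N-LKO cells). One of 152 and 311 cells was led by Kcne3, Nup210l and Angpt2, the last a ligand of vessel remodelling, and is called Angpt2-led. Others were pericentral (180 and 101 cells), periportal/arterial (132 and 217) and led by the cell-cycle gene Top2a (52 and 98). A subcluster of 123 and 176 cells carried macrophage genes, one of 40 and 17 stellate genes, one of 20 and 468 was led by Eda and Pdzrn3, with endothelial markers at 2756 CPM against 6145 in the class, and one of 2 and 41 was led by Sparcl1.

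Selp had opposite directions in these subclusters. In sinusoidal cells it had 21 UMIs in WT, 14.6 CPM (9.06 to 22.4), and 42 in N-LKO, 35.3 CPM (25.4 to 47.7), for a log2 ratio of 1.25 (0.48 to 2.10). In Angpt2-led cells it had 20 UMIs in WT, 103 CPM (63.0 to 159), and 10 in N-LKO, 24.0 CPM (11.5 to 44.2), for a log2 ratio of -2.07 (-3.36 to -0.94). The intervals of the libraries did not overlap in either subcluster, and the difference between the subclusters was not tested. In pericentral cells Selp had 23 UMIs in WT, 104 CPM, and 24 in N-LKO, 186 CPM, for a log2 ratio of 0.84 (-0.04 to 1.73). With the subclusters weighted by their WT shares, the Selp ratio of the class was 0.66 in place of 0.17.

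Sele had few UMIs in each subcluster. Angpt2-led cells had 8 in each library, 41.2 CPM in WT and 19.2 in N-LKO, pericentral cells 5 and 3, 22.5 and 23.2 CPM, and sinusoidal cells 6 and 4, 4.18 and 3.36 CPM. Among the 6 subclusters with at least 50 cells in each library, the highest WT levels of Sele were thus in the Angpt2-led and pericentral ones, as were those of Selp. Periportal/arterial cells had 0 and 2 Sele UMIs.

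Vcam1 was higher in N-LKO in pericentral cells, with 21 UMIs in WT, 94.6 CPM, and 28 in N-LKO, 217 CPM, for a log2 ratio of 1.19 (0.33 to 2.09). In sinusoidal cells it stood at 64.8 and 92.4 CPM, a log2 ratio of 0.51 (0.10 to 0.92). In Angpt2-led cells it stood at 139 and 98.6 CPM, a log2 ratio of -0.51 (-1.23 to 0.26). Periportal/arterial cells had 111 and 95.7 CPM.

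Pecam1 was higher in N-LKO in all 6 subclusters with at least 50 cells in each library, from a log2 ratio of 0.04 (-0.50 to 0.59) in the one with macrophage genes to 0.50 (0.07 to 0.97) in Angpt2-led cells. In sinusoidal cells it stood at 260.0 and 313 CPM, a log2 ratio of 0.27 (0.06 to 0.48). The Eda-led cells of N-LKO had 173 CPM (147 to 201) and the Sparcl1-led cells 719 (534 to 948). Without the subclusters of macrophage genes, stellate genes and Eda, a choice made after the data were seen, the Pecam1 ratio of the class was 0.42. No subcluster separated the libraries for Icam1, at 22.3 and 34.4 CPM in sinusoidal cells, or for Icam2, at 28.6 and 37.8.

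**Figure D3:**
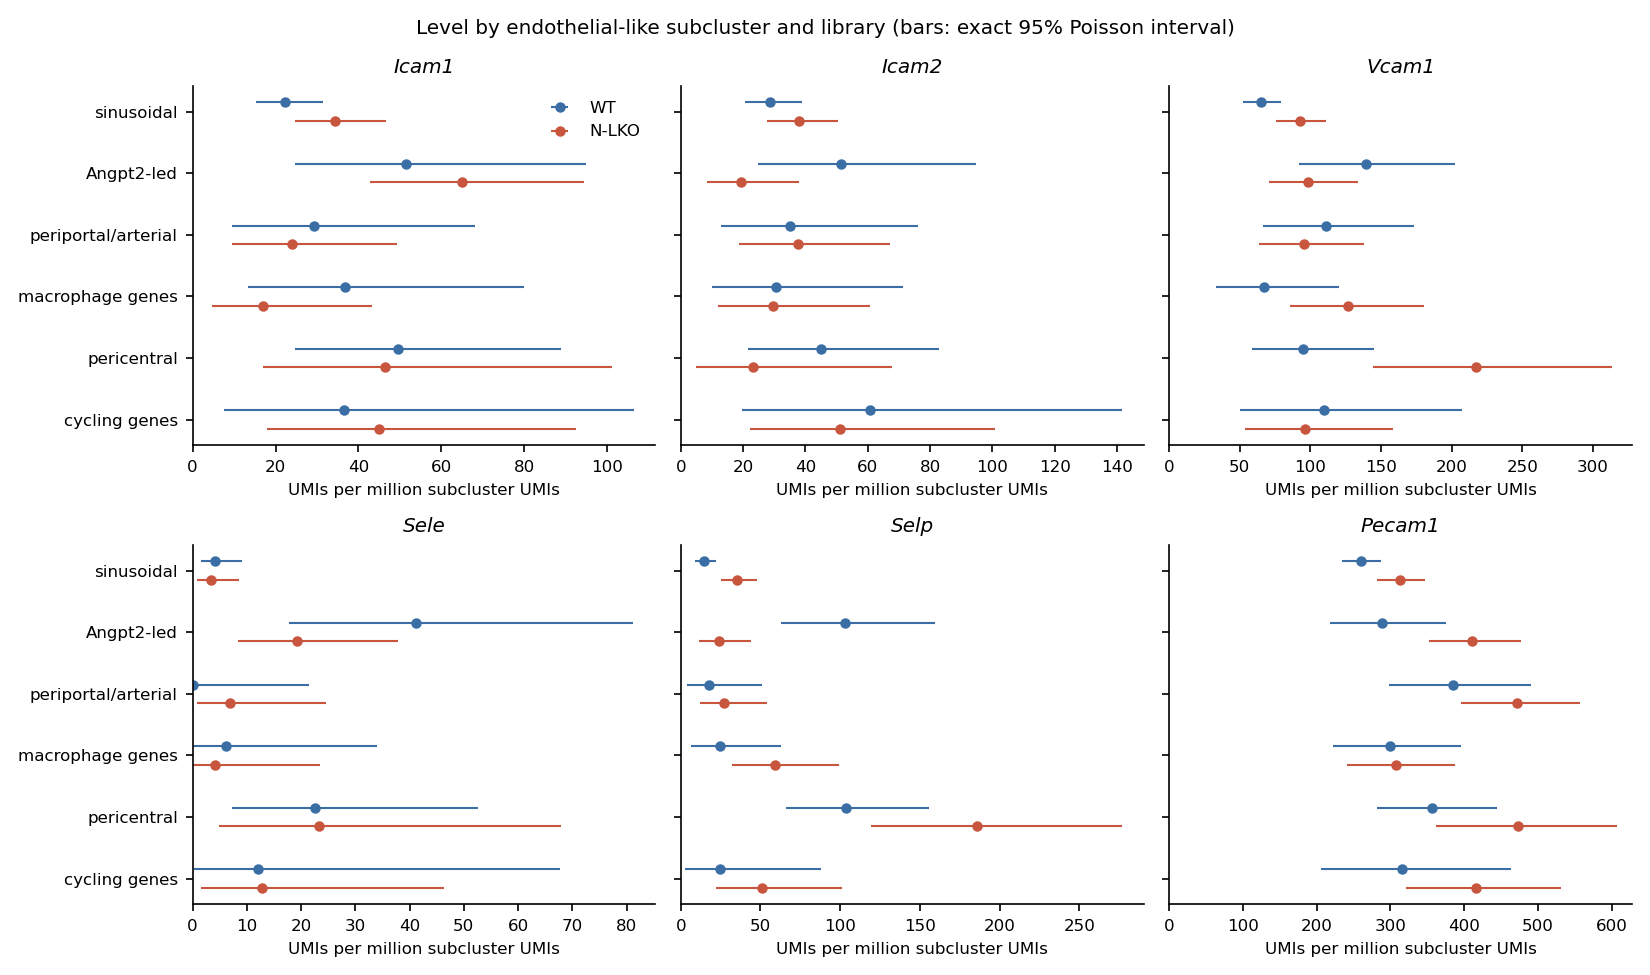
Level of each member in 6 endothelial-like subclusters (CPM, UMIs scaled by subcluster UMIs, axes differ between panels; blue WT, red N-LKO; bars are exact 95% Poisson intervals, 1 library per group). Selp is higher in N-LKO in sinusoidal cells, at 35.3 against 14.6, and lower in Angpt2-led cells, at 24.0 against 103.

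Across cell classes Pecam1 was highest in endothelial-like cells of both libraries, apart from the next class. B-like cells followed in WT, at 162 CPM (168 in N-LKO), and plasmacytoid-like cells in N-LKO, at 179 (159 in WT), and these 2 overlapped. Selp was highest in endothelial-like cells too, overlapping neutrophil-like cells in WT (19.1 CPM on 3 UMIs) and apart from dendritic-like cells in N-LKO (16.1 CPM on 15 UMIs). Dendritic-like cells had 0 Selp UMIs in WT, so Selp passed the filter there only through N-LKO and had to be higher. Against a floor of 3 counts in the class N-LKO was 2.01-fold higher, and the interval of the ratio began at 1.44-fold. Icam2 and Sele were highest in endothelial-like cells in WT, and in N-LKO stood under erythroid-like cells (7 UMIs) and stellate-like cells (5 UMIs), with overlapping intervals.

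Icam1 was highest outside the endothelium. In WT it stood at 63.6 CPM in neutrophil-like, 54.5 in monocyte-like and 45.0 in macrophage-like cells, and in N-LKO at 56.4, 49.5 and 48.3. These classes overlapped with their neighbours in the order. Of all Icam1 UMIs in kept cells, macrophage-like cells held 20.2% (WT) and 24.7% (N-LKO), and endothelial-like cells 12.2% and 10.0%. T/NK-like cells had 38 Icam1 UMIs in WT, 24.6 CPM, and 143 in N-LKO, 48.8 CPM, for a log2 ratio of 0.98 (0.47 to 1.55). With free RNA subtracted that ratio was 0.70. Macrophage markers in the T/NK-like class summed to 1267 CPM in WT and 2157 in N-LKO, and their part in its Icam1 was not tested. Hepatocyte-like cells had 6.01 and 17.9 CPM of Icam1, neither above the 6.49 and 26.1 of barcodes under 500 UMIs. Cluster 0 held most of that class in WT and cluster 5 in N-LKO.

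Vcam1 was by far most frequent in macrophage-like cells. They had 1086 UMIs in WT, 429 CPM (404 to 455), and 4403 in N-LKO, 673 CPM (653 to 693), for a log2 ratio of 0.65 (0.55 to 0.75). Vcam1 was the 1 member past 1.5-fold higher there of 4 tested, where 11.7% of 10924 genes were past 1.5-fold higher, and no member was past 1.5-fold lower, where 14.6% of genes were. Of all Vcam1 UMIs in kept cells, this class held 43.7% (WT) and 62.3% (N-LKO), and endothelial-like cells 7.48% and 4.36%. The largest macrophage-like cluster, led by Mmp12, with Cd5l, Gpnmb, Clec4f, Vsig4 and Trem2 also among its leading genes (1574 and 3386 cells), stood at 436 and 667 CPM, and the cycling one (109 and 185 cells) at 281 and 493. With free RNA subtracted the log2 ratio was 0.60, and without a macrophage-like cluster that also held endothelial markers, left out after the data were seen, it was 0.63. At a finer clustering, also added after the data were seen, different clusters held most of the class in each library. A cluster led by Cd163, Clec4f and Fcna, with Marco and Timd4, held 1288 WT and 78 N-LKO cells, in which Vcam1 stood at 426 and 702 CPM, for a log2 ratio of 0.73 (0.37 to 1.05). A cluster led by Mmp12, Cd5l and Trem2, with Gpnmb, held 281 and 3287 cells, at 481 and 666 CPM, for a log2 ratio of 0.47 (0.27 to 0.67), under 1.5-fold.

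**Figure D4:**
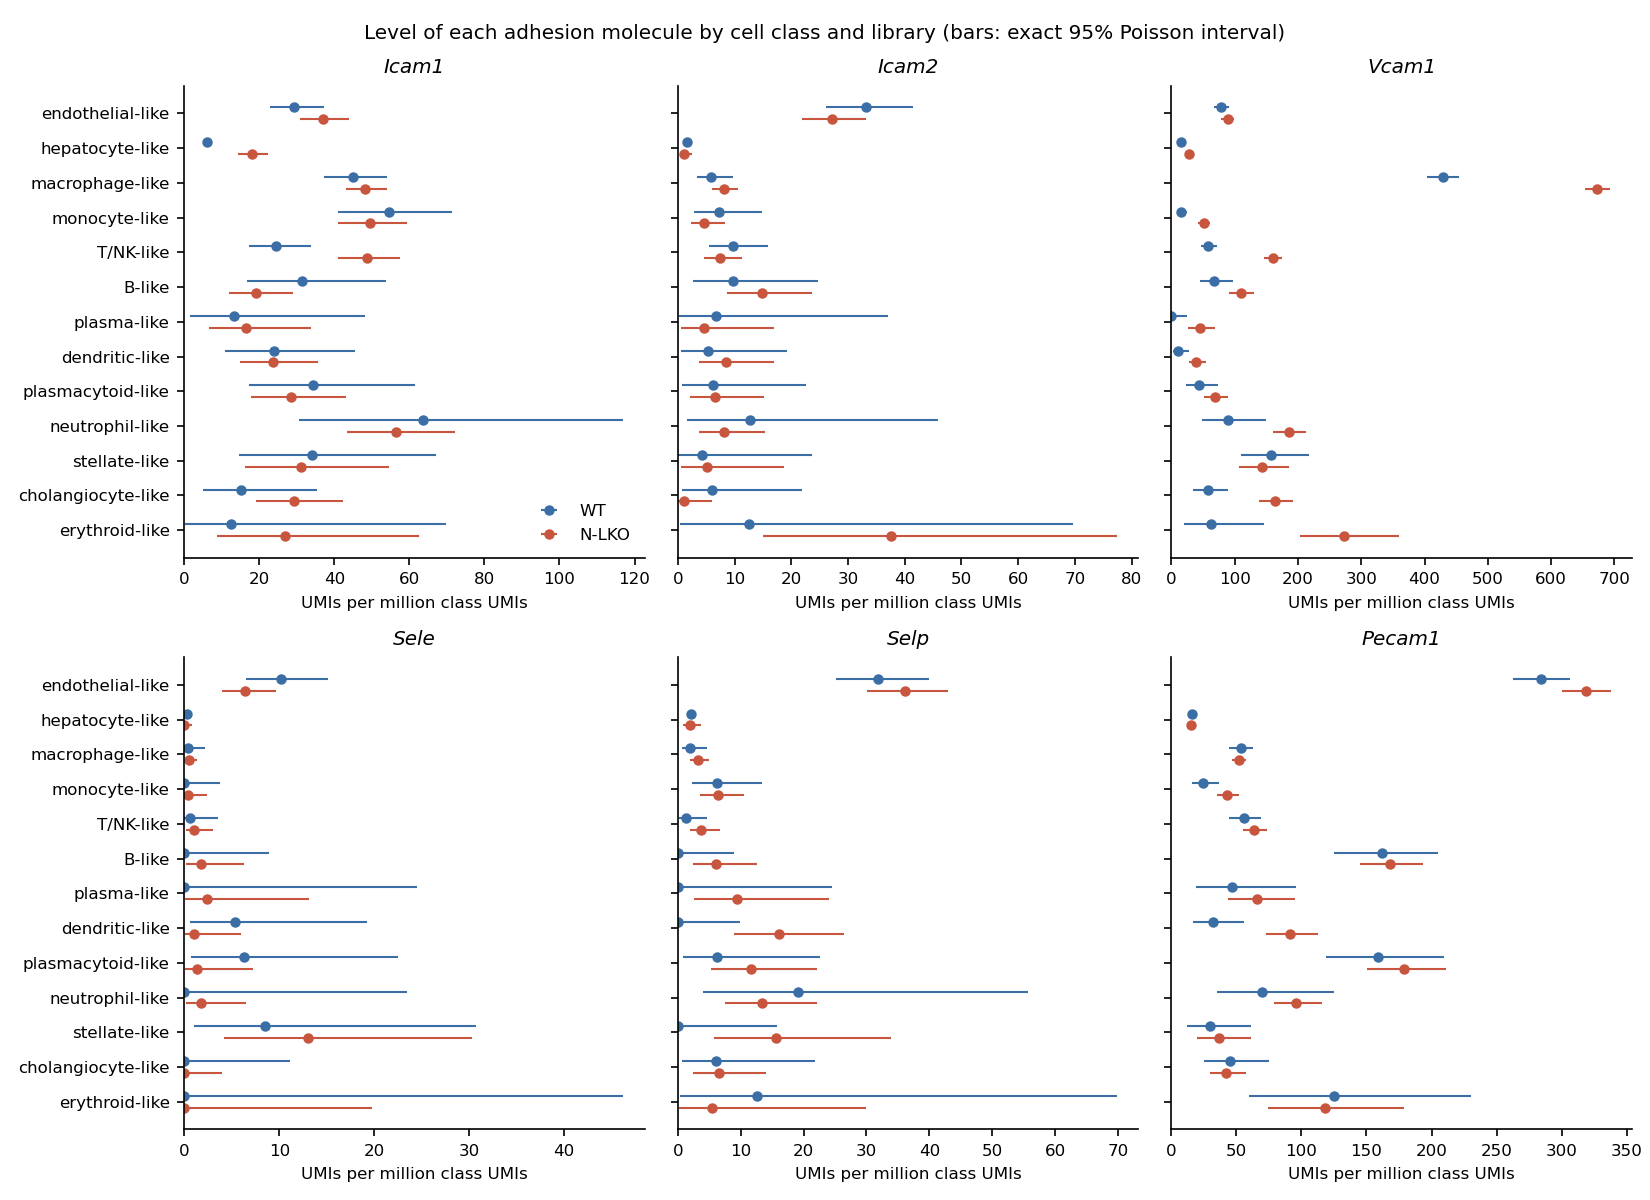
Level of each member in 13 cell classes (CPM, UMIs scaled by class UMIs, linear axes that differ between panels; blue WT, red N-LKO; bars are exact 95% Poisson intervals, 1 library per group). Vcam1 stands highest in macrophage-like cells, at 429 in WT and 673 in N-LKO, and Pecam1 and Selp in endothelial-like cells.

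In other classes Vcam1 was higher in N-LKO as well. It was past 1.5-fold higher in 11 of the 12 classes other than the endothelial-like one, and 10 of the intervals lay above equal levels. Of these 12, the share of all genes past 1.5-fold higher was taken only in macrophage-like (11.7%), T/NK-like and hepatocyte-like cells. With free RNA subtracted it was past 1.5-fold in 6 of the 9 classes that still gave a ratio, and not in B-like (0.33), plasmacytoid-like (0.20) and stellate-like cells (-0.34). Of these 6, monocyte-like and erythroid-like cells had only 4.59 and 3.87 WT Vcam1 UMIs left, and macrophage-like cells, at 0.60, were only just past 1.5-fold. T/NK-like cells had 58.2 and 159.9 CPM, a log2 ratio of 1.45 (1.13 to 1.80), and there 2 of 4 members tested were past 1.5-fold higher, beside 23.4% of 11630 genes, and 0 past 1.5-fold lower, beside 18.6%. Hepatocyte-like cells had 16.0 and 28.5 CPM, monocyte-like cells 15.4 and 51.2, and dendritic-like cells 10.6 and 39.6, all under the 22.9 and 68.2 of barcodes under 500 UMIs. In hepatocyte-like cells 2 of 3 members tested were past 1.5-fold higher, beside 14% of 9940 genes, and 0 past 1.5-fold lower, beside 9.06%. Plasma-like cells had 0 Vcam1 UMIs in WT and 19 in N-LKO, so Vcam1 passed the filter there only through N-LKO and had to be higher. Against a floor of 3 counts it was 2.24-fold higher, and the interval of the ratio began at 1.65-fold. The N-LKO level of these cells, 44.7 CPM, was under that of the same barcodes. Stellate-like cells had 157 and 143 CPM, with cluster 32 holding most of the class in WT and cluster 31 in N-LKO. The cells that stayed mixed went the other way, with 704 Vcam1 UMIs in WT, 260.4 CPM, and 655 in N-LKO, 227 CPM, for a log2 ratio of -0.20 (-0.35 to -0.04).

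Macrophage RNA moved with the Vcam1 values of many classes. Macrophage-like cells had 41.9 Vcam1 UMIs per 1000 UMIs of the 9 macrophage markers in WT and 79.5 in N-LKO. In T/NK-like cells the ratio was 45.9 (36.9 to 56.4) and 74.2 (67.6 to 81.2), and in barcodes under 500 UMIs 45.8 and 84.2, with the macrophage-like ratio inside the T/NK-like interval in each library. Endothelial-like cells stood apart, at 241 (208 to 279) in WT and 186 (166 to 208) in N-LKO, as did stellate-like cells at 356 and 207. Cholangiocyte-like cells were at 73.6 (44.3 to 115) in WT and 302 (256 to 354) in N-LKO, where Vcam1 itself stood at 57.4 and 164 CPM. The part of macrophage RNA in the other classes was not tested.

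**Figure D5:**
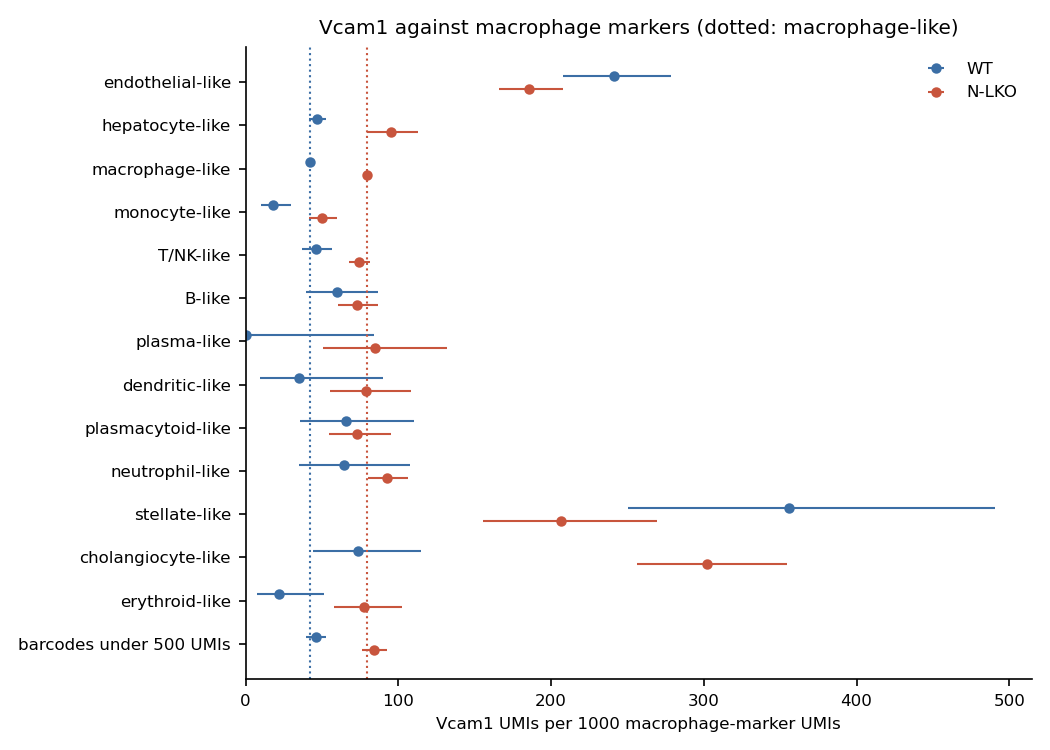
Vcam1 UMIs per 1000 UMIs of 9 macrophage markers by class (blue WT, red N-LKO; bars are 95% Poisson intervals of the Vcam1 count; dotted lines mark the macrophage-like ratios of 41.9 and 79.5). Endothelial-like and stellate-like cells lie to the right of the lines in both libraries, and cholangiocyte-like cells of N-LKO at 302.

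The leukocyte partners were present in both libraries. In T/NK-like cells Itgal, the LFA-1 alpha chain, stood at 158 CPM in WT and 168 in N-LKO, giving a log2 ratio of 0.09 (-0.13 to 0.32), while in macrophage-like cells it stood at 228 and 166, giving -0.46 (-0.61 to -0.31). Itga4, the VLA-4 alpha chain, stood at 468 and 358 in T/NK-like cells, a log2 ratio of -0.39 (-0.53 to -0.25). Itgam, the Mac-1 alpha chain, stood at 91.6 and 171 in monocyte-like cells, a log2 ratio of 0.89 (0.56 to 1.25). Selplg, the P-selectin ligand, stood at 95.4 and 80.6 in neutrophil-like cells, a log2 ratio of -0.28 (-1.04 to 0.65).

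Several other adhesion and junction genes were past 1.5-fold higher in N-LKO endothelial-like cells. Of 17 such genes 12 were tested, 7 were past 1.5-fold higher and 0 lower, beside the 23.5% and 17.5% of all genes tested in the class, which are the background of each list here. The median log2 ratio of the 12 was 0.79, against 0.09 over all genes tested. One of the 7, Jam3, passed the filter only through its N-LKO level (2.98 and 6.64 CPM), so it had to be higher. Alcam, an immunoglobulin-like adhesion molecule, stood at 84.6 and 369 CPM, a log2 ratio of 2.12 (1.91 to 2.35), and Cd34, a sialomucin, at 9.35 and 41.3 (2.11, 1.49 to 2.86). Vwf, stored with P-selectin in Weibel-Palade bodies, stood at 17.0 and 55.7 (1.70, 1.21 to 2.24), and F11r, a tight-junction molecule, at 97.3 and 178 (0.87, 0.65 to 1.10). Cd34 was also among the leading genes of the Sparcl1-led subcluster, which held 2 WT and 41 N-LKO cells. The part of subcluster makeup in these class ratios was not tested.

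Of 19 inducers and NF-kB genes 15 were tested, 3 were past 1.5-fold higher and 1 lower, shares under the background, with a median of 0.28. Il1r1, the IL-1 receptor, stood at 111 and 298 CPM (1.43, 1.23 to 1.63) and Il1b at 11.5 and 24.2 (1.06, 0.44 to 1.76). Il1a stood at 63.8 and 39.8 (-0.68, -1.02 to -0.34) and Relb, an NF-kB subunit, at 24.7 and 18.8 (-0.40, -0.93 to 0.14). Of 8 factors that restrain endothelial activation 7 were tested, 2 higher and 0 lower, near the background, with a median of 0.28, led by Thbd, thrombomodulin, at 37.0 and 99.3 (1.42, 1.08 to 1.78).

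Of 12 genes, chemokines and the chemokine receptor Ackr1, 9 were tested, 3 higher and 1 lower, with a median of -0.01. Of the 3, Ccl2 (4.25 and 8.66 CPM) passed the filter only through N-LKO. With 23.5% and 17.5% of all genes past these limits, the counts are no result about the list. Cxcl16, made as a membrane-bound chemokine, stood at 93.9 and 59.8 CPM (-0.65, -0.93 to -0.37), and Cxcl12 at 46.8 and 36.1 (-0.37, -0.76 to 0.01). Of 15 genes for selectin ligands and their sugar transferases 10 were tested, 2 higher and 0 lower, near the background, with a median of 0.20, namely Cd44 at 23.0 and 58.6 (1.34, 0.91 to 1.81) and B4galt1 at 63.8 and 119 (0.89, 0.62 to 1.18). Of 10 integrin genes of leukocytes 7 were tested, 6 higher and 0 lower. Itgax (0.425 and 6.06 CPM) and Itgam (1.28 and 6.64) passed the filter only through N-LKO, so both had to be higher, and the median of 1.03 includes them. The others included Itga4 at 10.6 and 34.1 (1.66, 1.05 to 2.37), while Itgb1 stood at 340.1 and 344 (0.02, -0.11 to 0.15). Of 6 proliferation genes 0 were past 1.5-fold in either direction, and of 14 early genes that dissociation can induce 4 were higher and 0 lower, from -0.47 to 1.997, 1 of the 4, Hspa1a, passing the filter only through N-LKO.

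Markers of other cells moved in the same class. The 9 macrophage markers summed to 328 CPM in WT and 479 in N-LKO endothelial-like cells, the 7 monocyte markers to 42.5 and 122, the 10 hepatocyte markers to 25137 and 11874, and the 10 stellate markers to 216 and 158. Of 6 platelet genes, Gp9, Gp1bb and Gp6 were at 0 in both libraries and the other 3 were detected in both. The 6 summed to 7.65 CPM in WT and 8.95 in N-LKO. The part of these cells in the values above was not tested.

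Over 26 profiles of class and library, the genes most like each member in log2 level were, by Pearson's r, Dgkz (0.80), Kpna4 (0.79) and Ccr1 (0.79) for Icam1, Klf2 (0.81), Arhgap31 (0.80) and Fam117b (0.79) for Icam2, and Tmem65 (0.91), Rhoc (0.88) and Bcl2l1 (0.87) for Vcam1. For Sele they were Gm13889 (0.79), Bmper (0.76) and Des (0.75), for Selp Vwf (0.79), Ushbp1 (0.78) and Lyve1 (0.77), and for Pecam1 Cd55 (0.86), Elf1 (0.83) and Fam43a (0.83). The profiles share 2 libraries and their free RNA.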

How the data were processed

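RNA of single cells was measured in 1 WT and 1 N-LKO liver library (10x Genomics 3' kit). The authors deposited UMI counts per gene and barcode, made with Cell Ranger 7.1.0 per the file headers; the submitters' processing notes name mm9 and Seurat. The lowest barcodes hold 326 (WT) and 377 (N-LKO) UMIs, so those under 500 UMIs are not empty droplets alone.

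Cells with at least 1000 UMIs, 400 genes and at most 30% mitochondrial UMIs were kept, and doublets by Scrublet score over 0.25 were removed (1728 and 2360). Clusters (scanpy 1.11.5, leidenalg 0.10.2, resolution 0.3, members left out) were named from fixed markers; naming thresholds, the split of mixed clusters and the subcluster labels were set after the data were seen, and 1522 WT and 1778 N-LKO cells stayed mixed. Levels are class sums with exact Poisson intervals, ratios add 0.5 UMI and carry exact conditional intervals, and shares carry Clopper-Pearson intervals. Free RNA was scaled by hepatocyte genes, so it was not subtracted from hepatocyte-like cells. The members and lists were chosen with earlier results of these data known. Beyond the members, the genes named are up to 4 per list of at least 20 CPM with the largest absolute ratio, and the 3 most alike of each member. Scripts were tested on simulated data. Alternatives changed filters, doublets, clustering, scaling, free RNA and cell choice.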

Additional observations from a re-analysis of the deposited data

Results flagged for a closer look

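Selp, the gene of P-selectin, had opposite directions in a pair of endothelial-like subclusters under the same contrast. The log2 ratio, N-LKO over WT, was 1.25 in sinusoidal cells (21 and 42 UMIs) and -2.07 in Angpt2-led cells (20 and 10 UMIs). With 1 library per group the difference was not tested. The subclusters were made after each gene was centred and scaled within its library.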

How the results depend on the processing

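No paired analysis was possible because each group has 1 library, and for the same reason no library could be left out. The endothelial-like ratio of each member was recomputed under 13 alternatives. A mitochondrial limit of 10%, which left 417 WT and 57 N-LKO endothelial-like cells, gave -2.19 for Icam1, 0.58 for Icam2, 1.07 for Sele and 1.04 for Pecam1. In other classes 12 member-class pairs were then past 1.5-fold higher and 5 lower (as reported 23 and 9 of 59 tested), and 4927 endothelial genes were past 1.5-fold higher. No share over all genes was pooled across these classes, so the pair counts are no result about the members. Pairs that passed the filter only through N-LKO, such as Selp in B-like cells (0 WT UMIs), had to be higher. Subtracting free RNA gave -0.10 for Icam1, -0.27 for Vcam1 and 8 pairs higher. The marker gate gave 0.29 for Icam2 and 0.49 for Pecam1, counting mixed clusters 0.48 for Vcam1, WT subcluster shares 0.66 for Selp, sinusoidal subclusters alone 0.36 for Pecam1, and leaving out subclusters of other cells' genes, added after the data were seen, 0.42 for Pecam1. Without a filter on low values 6954 genes were past 1.5-fold higher and 3419 lower, against 2714 and 2020. Apart from free RNA subtraction and fewer cells or genes, the cause was not tested. The ratio was above 0 in 13 of 13 alternatives for Selp and Pecam1, 12 for Vcam1, 11 for Icam1, 4 for Icam2 and 1 for Sele. Of 344 recomputed ratios in other classes 17 moved and 45 changed sign, all 45 of ratios whose interval as reported included 0; 5 of them came with free RNA subtracted (Icam1 in macrophage-like cells, -0.13, and Pecam1 in T/NK-like, B-like, plasmacytoid-like and stellate-like cells). Depth limits Sele most, with 24 and 22 UMIs.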

Other observations

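A cluster that stayed unnamed, led by Rspo3, Vwf and Pcdh9 (16 WT and 93 N-LKO cells), had 7 Selp UMIs in WT, 273 CPM, and 18 in N-LKO, 125 CPM, a log2 ratio of -1.19 (-2.46 to 0.37). It had 4 and 45 Pecam1 UMIs, 156 and 312 CPM. Another unnamed cluster, led by Col4a3 and Grip1, held 1 WT and 2061 N-LKO cells, in which Icam1 stood at 34.1 CPM on 136 UMIs and Pecam1 at 18.3 on 73 UMIs.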
